A study of Mus musculus with 24 samples.

Results

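Afmid, the formamidase of the kynurenine pathway, carried more signal in the ventricle of Tatdn1-/- mice than in that of Tatdn1+/+ mice. In cortex its mean was slightly lower, but only 1 of 6 Tatdn1+/+ and none of the Tatdn1-/- cortex arrays exceeded the background threshold defined below. The 9 other enzymes of the pathway were under that threshold on all 24 arrays. None of these 9 passed the adjusted threshold by genotype in either tissue, and no such test is read for Afmid. Only 0.0135% of all probe sets passed it in ventricle and 0.00901% in cortex, so that none of 9 is near these shares. The 10 genes described are Afmid, Ido1, Ido2, Tdo2, Kmo, Kynu, Haao, Qprt, Acmsd and Aadat, out of 19505 genes that had a probe set with a single gene symbol. Each of the 10 had exactly 1 probe set. The list was chosen by the Afmid values themselves, namely its Tatdn1-/- minus Tatdn1+/+ difference in ventricle, the same difference in cortex, and the gap between the 2. Those values of Afmid are therefore given as a description, without a test.

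The RNA came from the heart ventricle (the left ventricle according to the study's methods) and the cerebral cortex, and was measured on Mouse Clariom S HT arrays. There were 6 Tatdn1+/+ and 6 Tatdn1-/- mice, 2 months old and on a C57BL/6J background. Each genotype comprised 3 males and 3 females, and every mouse gave 1 array per tissue, 24 arrays in all. Tatdn1-/- mice lacked Tatdn1, a gene of the TatD nuclease family, in the whole body, because a floxed exon had been removed with a CAG-driven Cre that was bred out afterwards. The mice were untreated. All Tatdn1+/+ mice had the numbers 75 or 76 in their codes and all Tatdn1-/- mice 77 or 78, so whatever these numbers mark cannot be told apart from genotype. Tissue samples hold several cell types, so that fewer cells of a type and less RNA per cell cannot be told apart.

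The kynurenine pathway degrades most of the tryptophan that is not used for protein. Ido1, Ido2 or Tdo2 opens the indole ring to form N-formylkynurenine, and Afmid removes the formyl group to give kynurenine. Kmo and Kynu then lead to the substrate of Haao, whose unstable product either turns into quinolinic acid, which Qprt feeds into NAD synthesis, or is diverted by Acmsd. Aadat takes kynurenine out of this chain and converts it to kynurenic acid, an antagonist of glutamate receptors in the brain. In mammals the complete chain runs mainly in the liver, where Tdo2 is the dominant opening enzyme, whereas Ido1 is the interferon-inducible enzyme of immune and other cells, and Kmo in the brain is found mainly in microglia.

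The gene of Afmid spans bases 117825503 to 117839908 of chromosome 11 (GRCm38.p6) and overlaps by 585 bp the gene of Tk1, the cytosolic thymidine kinase, which runs in the opposite direction. In the RefSeq promoter windows, which cover 250 bases before and 50 after a gene's start, the start of Tk1 was 95 bp beyond that of Afmid, so that each start lies inside the other gene. A short stretch near each start is shown because it places a GC box (GGGCGG, read on both strands and shown in capitals) near both. The Afmid stretch reads the plus strand at chr11:117825857-117825886, its GC box beginning 50 bases before the Afmid start. The Tk1 stretch reads the minus strand at chr11:117826010-117826039, its GC box beginning 13 bases before the Tk1 start.
Afmid: gaactcaaaaggGGGCGGgacgaagacaag
Tk1: agtcccggctctGGGCGGctgcaccacacc
A GC box was present in 35.7% of all 32851 RefSeq promoter windows. Among the 7 members with such a window (all but Ido1, Ido2 and Kynu) only Afmid and Aadat held it. None of the 7 held CACGTG (an E-box, in 7.2% of all windows). The motif GCGTG, the core bound by the aryl hydrocarbon receptor, was in the windows of Acmsd, Tdo2 and Haao and in 32.4% of all windows.

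The values below are log2 signals after RMA, the authors' normalization, so that a difference of 1 is a doubling. On each array a probe set was called above background if it exceeded the 95th percentile of the 23 background control probe sets. This threshold ran from 3.79 to 4.73 in ventricle and from 3.37 to 4.83 in cortex, and 34.9% to 45.4% of the 22206 gene-level probe sets passed it on the ventricle arrays and 35.6% to 52.6% on the cortex arrays. Cardiomyocyte markers (7 genes, such as Myh6 and Tnnt2) averaged 10.9 in both ventricle groups, and neuron markers (8 genes, such as Snap25 and Syt1) 9.73 and 9.79 in the cortex groups. Tatdn1 itself had a mean of 5.49 ± 0.39 (SD, n = 6) in Tatdn1-/- ventricle and 6.85 ± 0.25 in Tatdn1+/+ ventricle (limma, adjusted p = 0.0156), and 4.99 ± 0.32 and 5.77 ± 0.34 in cortex (adjusted p = 0.168). The place of its probes relative to the deleted exon is not known here.

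Afmid in Tatdn1+/+ ventricle had a lowest value of 4.18, a median of 4.78 and a highest value of 5.0 over 6 mice. In Tatdn1-/- ventricle the lowest value was 5.44, the median 5.54 and the highest 6.35. The 2 groups did not overlap, and the lowest Tatdn1-/- array was 0.44 log2 units above the highest Tatdn1+/+ array. The means were 4.67 ± 0.32 (SD, n = 6) in Tatdn1+/+ and 5.66 ± 0.35 in Tatdn1-/- ventricle, a difference of 1.00 or 2.00-fold. Of all probe sets, 0.392% had all 6 Tatdn1-/- ventricle arrays above all 6 Tatdn1+/+ arrays, a share from which nothing is read here, because this contrast chose the gene. Afmid exceeded the background threshold on 5 of 6 Tatdn1+/+ and on all 6 Tatdn1-/- ventricle arrays, and the highest background control on 3 of 6 and on 6 of 6. Without Tatdn1-/- mouse F77-2, whose ventricle gave the value of 6.35, the difference was 0.86. Leaving out each mouse in turn, it stayed between 0.86 and 1.06 in the ventricle.

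In the cortex Afmid ran from 3.13 over a median of 3.33 to 3.65 in Tatdn1+/+ mice, and from 2.59 over a median of 3.01 to 3.44 in Tatdn1-/- mice. Here 5 of 6 Tatdn1-/- arrays lay below all Tatdn1+/+ arrays, and the remaining one, of mouse M78-1, fell within them. The means were 3.37 ± 0.19 and 3.01 ± 0.27 (SD, n = 6 each), a difference of -0.35. Only 1 of 6 Tatdn1+/+ cortex arrays and none of the Tatdn1-/- cortex arrays exceeded the background threshold, so no fold is given. The difference between tissues of the Tatdn1-/- minus Tatdn1+/+ difference was 1.35 log2 units.

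**Figure D1:**
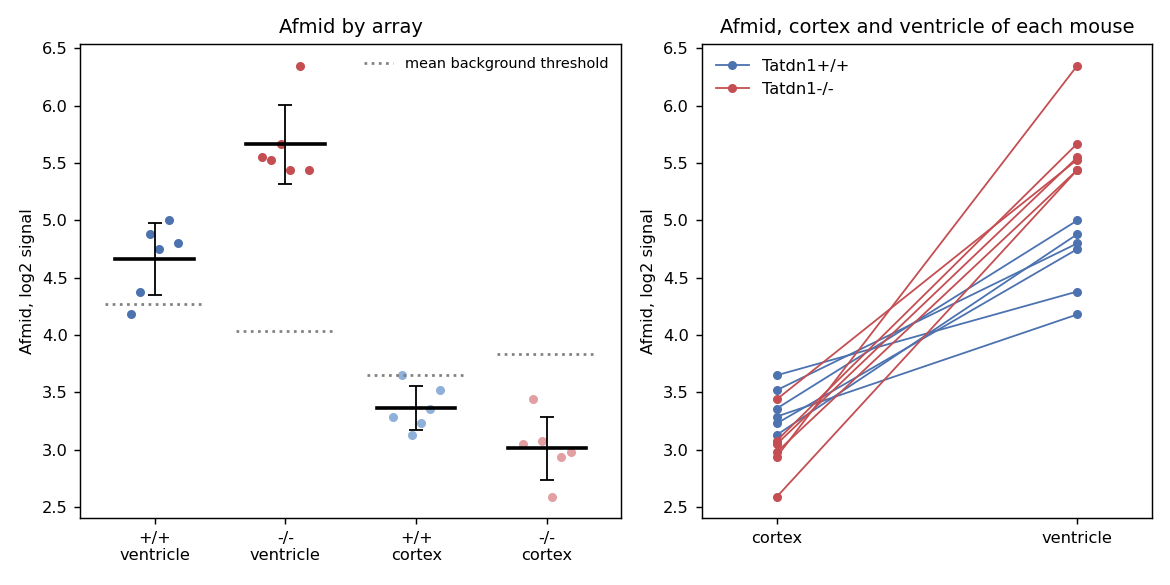
Log2 signal of Afmid. Left, each array of the 4 groups (points, 6 mice each), with the group mean and SD (black) and the mean background threshold of the group (dotted). Right, cortex and ventricle of each mouse joined by a line. All 6 Tatdn1-/- ventricles sit at 5.44 or higher and all 6 Tatdn1+/+ ventricles at 5.0 or lower, while the cortex values lie between 2.59 and 3.65.

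Within every mouse Afmid was higher in ventricle than in cortex. Ventricle minus cortex ran from 0.73 to 1.75 (median 1.40) in the 6 Tatdn1+/+ mice and from 2.09 to 3.41 (median 2.54) in the 6 Tatdn1-/- mice. The gap between these 2 sets of values is what chose the gene, so that nothing is read from it, and the cortex signal was under the background threshold on 11 of 12 arrays. The tissue means differed by 1.301 in Tatdn1+/+ mice and by 2.65 in Tatdn1-/- mice, which are given without a test for the same reason. Since Afmid was not above background on any Tatdn1-/- cortex array, the ventricle level was at least 3.54-fold higher there, when each cortex array is given its background threshold.

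In the ventricle males had means of 4.48 ± 0.36 (Tatdn1+/+) and 5.58 ± 0.07 (Tatdn1-/-), and females 4.85 ± 0.13 and 5.74 ± 0.52 (SD, n = 3 each). In cortex the Tatdn1-/- minus Tatdn1+/+ difference was -0.17 in males and -0.53 in females. The genotype contrast chose the gene, so that these values within each sex are a description too. Male minus female, with genotype as a term, was -0.27 in ventricle (limma, adjusted p = 0.975) and 0.17 in cortex (adjusted p = 0.967).

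The opening enzymes had low signals in all 4 groups. Ido1 and Ido2, neighbours on chromosome 8, and Tdo2 were not above background on any of the 24 arrays, and the same was true of the other 6 members besides Afmid. This does not show that the transcripts were absent, and folds between such values are not given. In ventricle Ido1 ran from 1.36 to 1.90 in Tatdn1+/+ and from 1.21 to 1.86 in Tatdn1-/- mice, with a difference of -0.06 (limma, adjusted p = 0.934). Ido2 ran from 1.38 to 2.86 and from 1.71 to 2.99 (difference -0.31, adjusted p = 0.776), and Tdo2 from 0.96 to 1.67 and from 0.87 to 1.18 (difference -0.11, adjusted p = 0.863). All 3 overlapped between the genotypes. In cortex the differences were -0.01 for Ido1, 0.30 for Ido2 and 0.10 for Tdo2 (adjusted p from 0.739 to 0.996), with 4 of 6 Tatdn1-/- arrays of Ido2 above all Tatdn1+/+ arrays.

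Kmo, the monooxygenase that hydroxylates kynurenine, was the other member besides Afmid with a higher mean in the Tatdn1-/- ventricle by more than its standard error. Its values were 1.39 at the lowest, 1.90 at the median and 2.30 at the highest in Tatdn1+/+ ventricle, and 2.22, 2.44 and 2.82 in Tatdn1-/- ventricle. The groups overlapped, but 4 of 6 Tatdn1-/- arrays lay above every Tatdn1+/+ array. The difference of 0.59 (standard error 0.15, 95% confidence interval 0.26 to 0.91) did not pass the adjustment over all probe sets (limma, unadjusted p = 0.00153, adjusted p = 0.308). Kmo was singled out after its values were seen, and it was below the background threshold on every array. An unadjusted p under 0.05 was reached by 1 of the 9 members other than Afmid in ventricle and by 0 of 9 in cortex, against 8.46% and 6.98% of all probe sets. In cortex Kmo ran from 1.60 to 2.49 in Tatdn1+/+ and from 1.41 to 2.40 in Tatdn1-/- mice (difference -0.19, adjusted p = 0.856). The difference between tissues of its genotype effect was 0.78 (standard error 0.24, adjusted p = 0.286).

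The remaining enzymes of the main chain overlapped between the genotypes in both tissues. Kynu, which cleaves alanine from hydroxykynurenine, differed by -0.08 in ventricle and 0.11 in cortex, and Haao, the ring-opening dioxygenase, by -0.28 and 0.17. Qprt, the transferase that leads to NAD, differed by -0.27 in ventricle (95% confidence interval -0.67 to 0.14) and by 0.27 in cortex (-0.23 to 0.77). Acmsd, the decarboxylase that diverts the product of Haao, differed by -0.22 and -0.11, and Aadat, the aminotransferase, by 0.03 and -0.09. For these 5 genes the adjusted p from limma ran from 0.691 to 0.952 in ventricle and from 0.844 to 0.917 in cortex.

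Over the 9 members other than Afmid, 0 passed an adjusted p of 0.05 (limma) by genotype in ventricle, in cortex or in the test of the difference between the tissues, where 0.0135%, 0.00901% and 0.0135% of all probe sets passed it. The mean was higher in Tatdn1-/- mice for 2 of 9 in ventricle, Kmo and Aadat, and for 5 of 9 in cortex. The median difference was -0.11 in ventricle and 0.10 in cortex, beside 0.02 and -0.02 over all probe sets. A p that misses the threshold does not show that the genotypes were alike, and the confidence intervals of these 9 genes reached as far as -0.86 (Ido2) and 0.91 (Kmo) in ventricle.

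**Figure D2:**
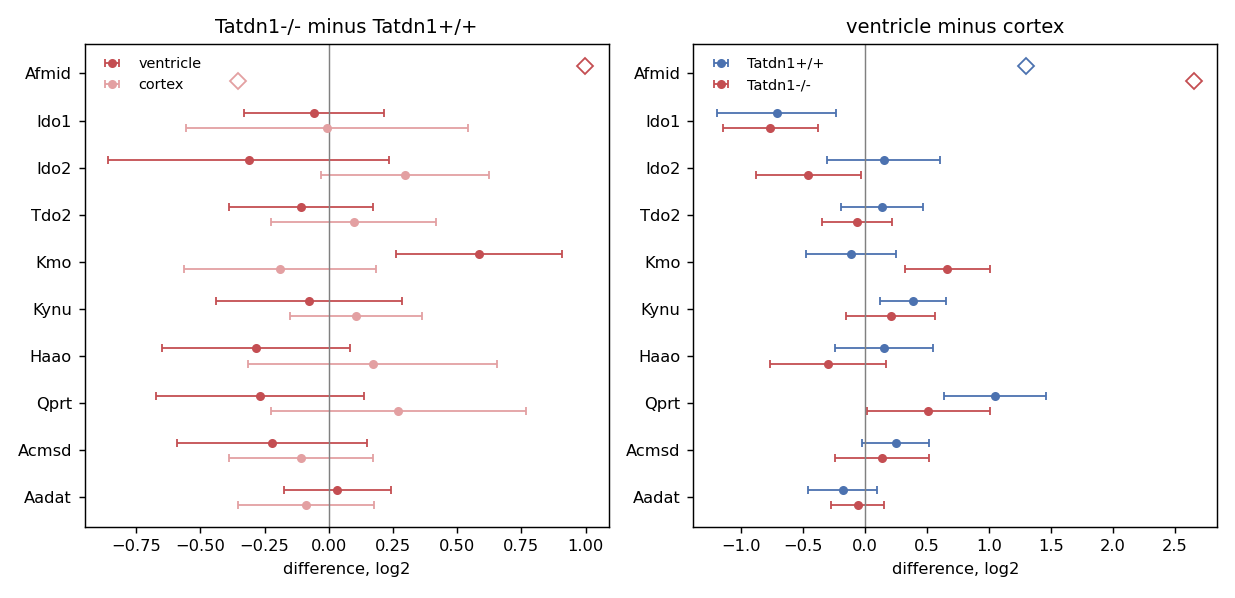
Log2 differences of the 10 members, left between genotypes (Tatdn1-/- minus Tatdn1+/+) in ventricle and cortex, right between tissues (ventricle minus cortex) in each genotype. Points with bars are fitted differences with 95% confidence intervals, and open diamonds are Afmid values given without an interval because they, or the gap between them, chose the list. In ventricle the Kmo interval lies above 0, at 0.26 to 0.91, and those of the other 8 tested members include 0.

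The tissues differed in Tatdn1+/+ mice for 3 of the 9 members other than Afmid, against 55.5% of all probe sets (limma, adjusted p under 0.05). These were Qprt and Kynu, higher in ventricle, and Ido1, higher in cortex. In Tatdn1-/- mice 55.1% of all probe sets passed, and 2 of the 9 members, namely Kmo, higher in ventricle, and Ido1, higher in cortex. All 9 were compared at signals under the background threshold. When arrays were centred on their medians, 6 of 9 members passed in Tatdn1+/+ and 5 of 9 in Tatdn1-/- mice, beside 80.2% and 74.1% of all probe sets. Without mouse F77-1 the count in Tatdn1-/- mice was 4 of 9.

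Qprt ran from 2.71 over a median of 3.14 to 3.46 in Tatdn1+/+ ventricle and from 1.52 over 2.02 to 2.63 in Tatdn1+/+ cortex, without overlap, as for 39.2% of all probe sets (difference 1.05, standard error 0.20, limma, adjusted p = 0.000144). In Tatdn1-/- mice it ran from 2.31 over 2.99 to 3.28 in ventricle and from 1.51 over 2.50 to 2.90 in cortex, which overlapped. That difference was 0.51 (adjusted p = 0.0758), and the change of the tissue difference with genotype, -0.54, was not significant (adjusted p = 0.62). The Tatdn1-/- tissue difference passed the threshold after centring each array on its median (adjusted p = 0.00254) and after quantile normalization (adjusted p = 0.0222). It also passed in 2 of the settings with a mouse left out.

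Ido1 ran from 1.45 over a median of 2.20 to 3.13 in Tatdn1+/+ cortex, so that only 1 of 6 ventricle arrays, at 1.36, lay below all of them. In Tatdn1-/- cortex it ran from 1.80 over 2.30 to 2.88, and 5 of 6 ventricle arrays lay below that range. Ventricle minus cortex was -0.71 in Tatdn1+/+ (adjusted p = 0.0128) and -0.76 in Tatdn1-/- mice (adjusted p = 0.00173, limma). Both calls were lost when arrays were centred on their medians (adjusted p = 0.223 and 0.0501), a scaling that raised ventricle minus cortex by 0.41 and 0.33 for every probe set. The Tatdn1+/+ call was also lost in 1 of the settings with a mouse left out.

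Kynu ran from 1.00 over a median of 1.31 to 1.59 in Tatdn1+/+ ventricle and from 0.68 over 1.00 to 1.05 in Tatdn1+/+ cortex, with 5 of 6 ventricle arrays above every cortex array (difference 0.39, limma, adjusted p = 0.0148). The call was lost after quantile normalization (adjusted p = 0.06) and without mouse M75-1 (adjusted p = 0.0849). Kmo in Tatdn1-/- mice was higher in ventricle than in cortex in 6 of 6 mice, by 0.28 to 1.24, with a mean difference of 0.66 (limma, adjusted p = 0.00194). In Tatdn1+/+ mice its tissue difference was -0.11 (adjusted p = 0.604) and positive in 3 of 6 mice, and it turned to 0.30 when arrays were centred on their medians. Ido2 in Tatdn1-/- mice differed by -0.46 (adjusted p = 0.0626), and with the mouse as a block the adjusted p was 0.0351. The tissue groups of Tatdn1-/- mice did not overlap for 40.1% of all probe sets, but of the 9 members other than Afmid none was among them.

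**Figure D3:**
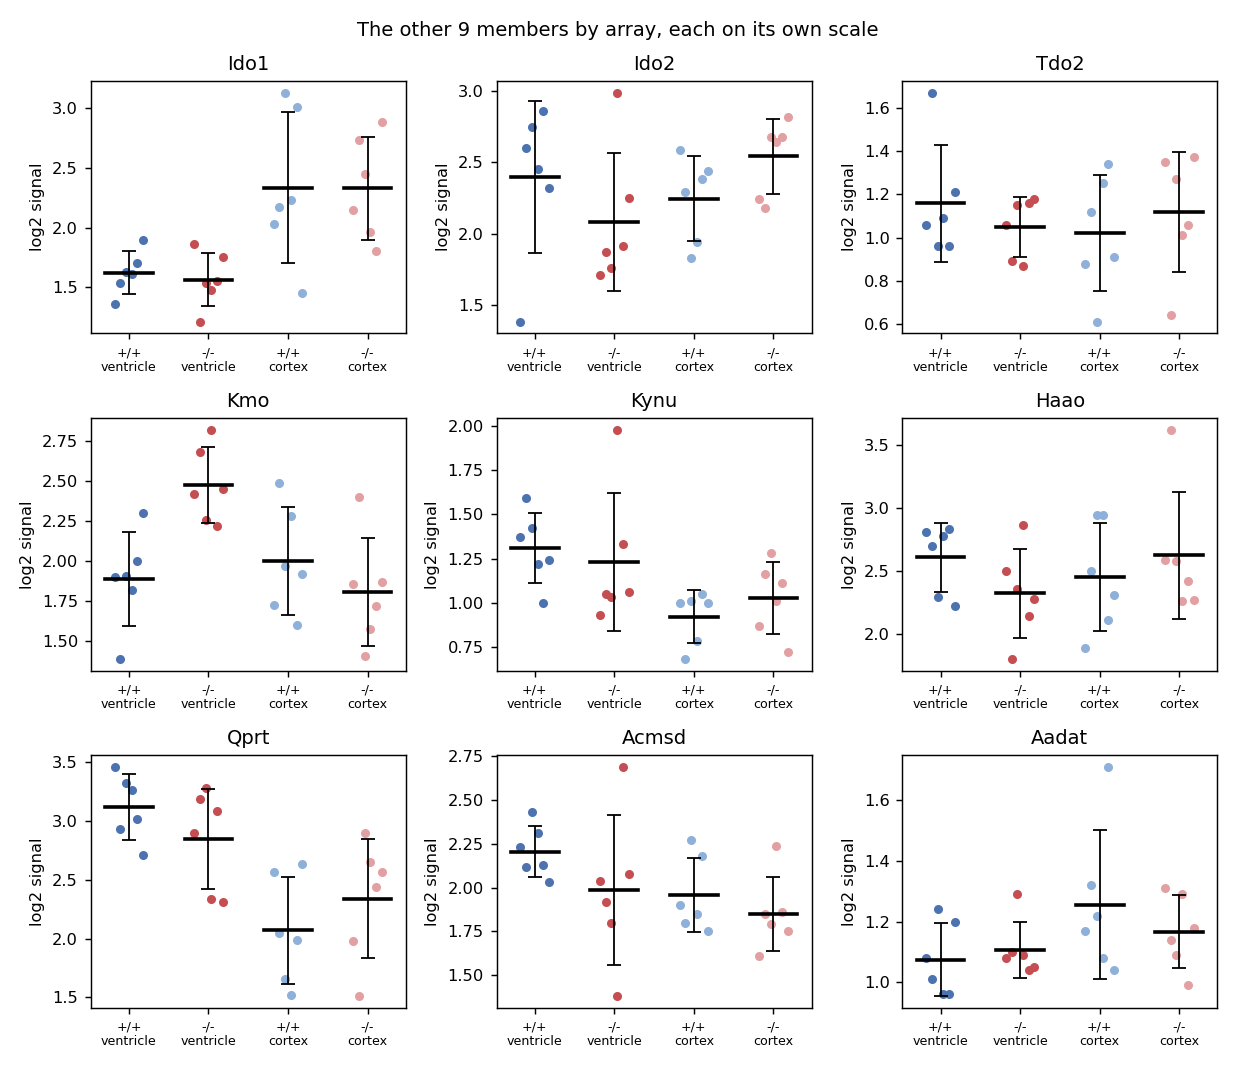
Log2 signal of the 9 members other than Afmid on each of the 24 arrays (points, 6 mice per group), with the group mean and SD (black). Each panel has its own scale, and no point is above the background threshold of its array. Kmo in Tatdn1-/- ventricle runs from 2.22 to 2.82 against 1.39 to 2.30 in Tatdn1+/+ ventricle, and Qprt is the panel in which the Tatdn1+/+ tissues do not overlap.

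By sex, 0 of 10 members passed an adjusted p of 0.05 in ventricle or in cortex, against 0.018% of all probe sets in each tissue (limma). The smallest unadjusted p was that of Qprt in ventricle, 0.0349 (male minus female 0.39, 95% confidence interval 0.03 to 0.75, adjusted p = 0.855), so that the sexes are not shown to be alike. The sex difference of the genotype effect in ventricle was lowest in p for Kynu, at -0.75 (unadjusted p = 0.0244, adjusted p = 0.898), where males had a lower Tatdn1-/- mean, by 0.45, and females a higher mean, by 0.30.

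Around Afmid, 12 of 17 RefSeq genes within 250 kb had a probe set, and 0 of these 12 reached an unadjusted p under 0.05 by genotype in either tissue. Of all probe sets, 8.46% reached it in ventricle and 6.98% in cortex, and with 12 genes a count of 0 is near these shares. The differences of the 12 genes ran from -0.47 to 0.28 in ventricle and from -0.27 to 0.26 in cortex. Tk1, whose start faces the GC box stretch shown above, was not above background on any array. It had means of 2.58 ± 0.31 in Tatdn1+/+ and 2.29 ± 0.25 in Tatdn1-/- ventricle (SD, n = 6, difference -0.29, limma, adjusted p = 0.654), opposite in sign to Afmid, and differed by -0.22 in cortex (adjusted p = 0.762). Tha1, a threonine aldolase gene, had the same pair of signs as Afmid, at 0.28 in ventricle and -0.27 in cortex. So did Tmc6 (0.19 and -0.01), Socs3 (0.11 and -0.08) and Pgs1 (0.17 and -0.03). In cortex the differences of Tmc6, Socs3 and Pgs1 were smaller than their standard errors (0.14 to 0.17), so that nothing is read from their signs. For Tha1 the difference between tissues was 0.55 and did not pass the adjustment (limma, unadjusted p = 0.0157, adjusted p = 0.406). Tha1 and Tmc6 were not above background on any cortex array, and Socs3 was not on any array of either tissue.

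**Figure D4:**
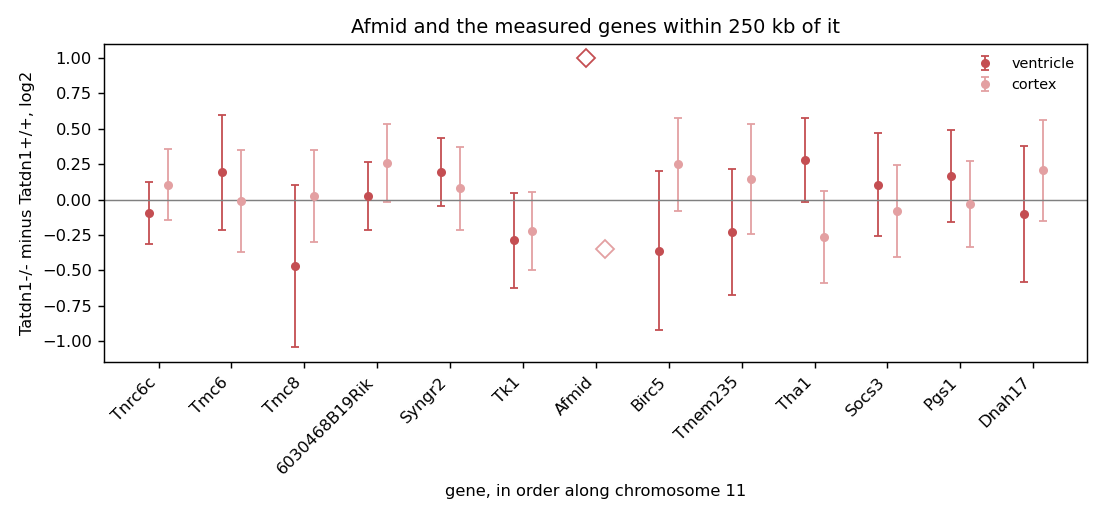
Log2 differences Tatdn1-/- minus Tatdn1+/+ in ventricle and cortex for Afmid and the 12 measured genes within 250 kb, in order along chromosome 11. Bars are 95% confidence intervals of the fit, and open diamonds mark Afmid, whose values chose the list. The 12 other genes lie between -0.47 and 0.28, and each of their intervals includes 0.

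Of the genes upstream of the pathway, 0 of 5 carriers of tryptophan passed the adjusted threshold by genotype in either tissue. It was passed by 0.0135% of all probe sets in ventricle and by 0.00901% in cortex. A count of 0 is near these shares, here and in the lists below. Slc7a5, the light chain of the main carrier for large neutral amino acids, had means of 4.55 ± 0.49 in Tatdn1+/+ and 4.76 ± 0.29 in Tatdn1-/- ventricle, and of 7.52 ± 0.19 and 7.34 ± 0.16 in cortex (SD, n = 6). Its differences by genotype were 0.21 and -0.18 (limma, adjusted p = 0.827 and 0.796). Among 6 genes of the other uses of tryptophan, none passed. Wars, which charges the tryptophan tRNA, had a difference of 0.37 in ventricle (unadjusted p = 0.0453, adjusted p = 0.574). An unadjusted p under 0.05 was reached in cortex by 2 of the 6, where 6.98% of all probe sets reached it. Maob, a monoamine oxidase, had a difference of -0.31 (unadjusted p = 0.0382, adjusted p = 0.688), and Ddc, the aromatic amino acid decarboxylase, also one of -0.31 (unadjusted p = 0.0495, adjusted p = 0.708).

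The 3 kynurenine aminotransferases measured beside Aadat were all expressed above background in ventricle. Kyat1 had means of 7.65 ± 0.34 and 7.91 ± 0.20 in Tatdn1+/+ and Tatdn1-/- ventricle, Kyat3 6.24 ± 0.12 and 6.51 ± 0.13, and Got2 11.01 ± 0.07 and 11.07 ± 0.06 (SD, n = 6). None passed the adjusted threshold by genotype, beside 0.0135% of all probe sets in ventricle and 0.00901% in cortex. The largest of these differences relative to its error was that of Kyat3 in ventricle, 0.27 (limma, unadjusted p = 0.018, adjusted p = 0.499). Ventricle minus cortex was 0.74 for Got2 and 2.27 for Kyat1 in Tatdn1+/+ mice, and 0.88 and 2.38 in Tatdn1-/- mice. Kyat3 was not above background on any cortex array, and by the bound used for Afmid it was at least 5.99-fold higher in ventricle in Tatdn1+/+ and at least 6.37-fold higher in Tatdn1-/- mice.

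Downstream, 0 of 10 genes of NAD synthesis and 0 of 3 of the glutarate branch passed by genotype. For these and the next lists the shares of all probe sets were 0.0135% in ventricle and 0.00901% in cortex. Nadk, the NAD kinase, had means of 3.53 ± 0.58 and 4.20 ± 0.24 in Tatdn1+/+ and Tatdn1-/- ventricle (difference 0.67, limma, unadjusted p = 0.0101, adjusted p = 0.442). Nmrk1, a nicotinamide riboside kinase, had 2.21 ± 0.89 and 3.21 ± 0.47 (difference 1.00, unadjusted p = 0.012, adjusted p = 0.462). Nadk exceeded the background threshold on none of the 6 Tatdn1+/+ and on 4 of 6 Tatdn1-/- ventricle arrays, and Nmrk1 on none and on 1 of 6. In the list, 2 of 10 genes had an unadjusted p under 0.05 in ventricle and 0 of 10 in cortex, beside 8.46% and 6.98% of all probe sets. The median difference of the 10 genes was 0.15 in ventricle and -0.04 in cortex. Of the 8 genes of the aryl hydrocarbon receptor, which kynurenine and kynurenic acid activate, and of Gpr35, none passed. Tiparp, a target gene of that receptor, had the smallest p, with a difference of -0.46 in cortex (unadjusted p = 0.0413, adjusted p = 0.689). Among 9 measured genes of interferon gamma signalling, the inducer of Ido1, none passed and none had an unadjusted p under 0.05. Gbp2, an interferon-induced GTPase, had means of 4.51 ± 0.40 and 4.96 ± 0.45 in ventricle (difference 0.46, adjusted p = 0.603).

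Marker lists of other cell types were measured beside these values. In ventricle the mean of the 8 neuron markers ran from 2.94 to 3.72 in Tatdn1+/+ and from 2.89 to 4.82 in Tatdn1-/- arrays, the highest being mouse M78-1. Of the 8, 7 had a higher mean in Tatdn1-/- ventricle, 3 with an unadjusted p under 0.05 and 0 with an adjusted p under 0.05, where 54.1% of all probe sets had a higher mean and 8.46% an unadjusted p under 0.05 in either direction. Of the neuron markers, 2 were above background on some Tatdn1+/+ ventricle array and 4 on some Tatdn1-/- ventricle array. Without mouse M78-1 the ventricle difference was 1.02 for Afmid and 0.55 for Kmo. The 6 measured microglia and macrophage markers averaged 4.0 to 4.37 in Tatdn1+/+ and 4.15 to 4.65 in Tatdn1-/- ventricle, and 0 of 6 had an unadjusted p under 0.05. Their part in the Kmo values was not tested. Hepatocyte markers, 7 genes such as Alb and Apoa1, averaged 1.56 to 1.97 in Tatdn1+/+ and 1.47 to 1.78 in Tatdn1-/- ventricle, and in the latter none was above background on any array. In cortex 1 of these 7 was higher in Tatdn1-/- mice with an unadjusted p under 0.05. The 6 astrocyte markers averaged 3.43 to 3.97 in Tatdn1+/+ and 3.55 to 4.5 in Tatdn1-/- ventricle, with 5 of 6 higher in Tatdn1-/- mice and 1 at an unadjusted p under 0.05. The 4 oligodendrocyte markers averaged 7.43 to 8.31 in Tatdn1+/+ and 7.66 to 8.26 in Tatdn1-/- cortex, with 4 of 4 higher in Tatdn1-/- mice by a median of 0.37. An unadjusted p under 0.05 was reached by 2 of the 4. Of all probe sets, 46.1% had a higher mean in Tatdn1-/- cortex and 6.98% an unadjusted p under 0.05 there in either direction. In ventricle 4 of 4 endothelial and 3 of 3 fibroblast markers had a higher mean in Tatdn1-/- mice, and in cortex 1 endothelial and 1 cardiomyocyte marker were lower at an unadjusted p under 0.05. The part of these lists in the Afmid and Kmo values was not tested.

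The genes whose signal followed Afmid most closely are given as a description, by Pearson's r, without a test. Over the 24 arrays, which span both tissues, these were Pirt (r = 0.968), Lsm10 (0.959), Wfdc1 (0.951), Pnrc2 (0.95) and Pcolce (0.95). Over the 12 ventricle arrays, which share the genotype difference that chose the list, they were Mapk9 (r = 0.92), Pirt (0.917), Anxa6 (0.899), Socs2 (0.898) and Rfx3 (0.892). Pirt was the only gene in both sets, with means of 4.24 in Tatdn1+/+ and 5.51 in Tatdn1-/- ventricle and of 2.20 and 1.97 in cortex. With each group's mean removed, r over the 12 ventricle arrays was 0.817 for Pirt, 0.806 for Mapk9, 0.721 for Anxa6, 0.661 for Socs2 and 0.888 for Rfx3. For the other genes closest over the 24 arrays it was 0.655 (Lsm10), 0.303 (Wfdc1), 0.54 (Pnrc2) and 0.76 (Pcolce). All these genes were picked by their r over arrays that include these 12, so that nothing is read from the values. Mouse F77-2, with the outlying Afmid value of 6.35, is among the 12. Of the 5 genes closest over the ventricle arrays, 3 (Mapk9, Pirt and Anxa6) are on chromosome 11, as is Afmid. So are 7.56% of all located probe sets, and 1 of the 5 genes closest over the 24 arrays. Both sets were picked by likeness to the values that chose the list, so that nothing is read from these counts. The 3 genes lie far from Afmid, with starts at bases 49846728 (Mapk9), 54978953 (Anxa6) and 66911905 (Pirt), against 117825503 for Afmid. Among the other members Kmo had the highest r with Afmid over the 12 ventricle arrays, 0.641, and Haao the lowest, -0.527. Tatdn1 had an r of -0.872 and Tk1 of -0.343. The genotypes differ in Tatdn1 by design and in Afmid by the choice of the list. The r of Tatdn1 therefore follows from the groups, and nothing is read from it.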

How the data were processed

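Mouse Clariom S HT arrays had been used for RNA from the ventricle and cortex of 12 mice. The deposited values are log2 signals that the authors made with RMA (version, and which arrays were normalized together, not given in the sources used here). RMA corrects background, quantile-normalizes and summarises probes on a log2 scale. The table held 29129 entries, of which 6923 that are not gene-level were left out and 22206 entered the tests. All contrasts used lmFit and eBayes of limma 3.58.1 (R 4.3.3), without a filter, and p values were adjusted by Benjamini-Hochberg over all 22206 probe sets at a threshold of 0.05. Genotype was fitted within each tissue, tissue within each genotype, sex with genotype as a term, and the difference between tissues over 24 arrays. The number of arrays limits the precision. The genotype fits were checked on simulated data with known changes. Symbols and positions came from the platform table and RefSeq (GRCm38.p6). Python 3.11.15 was used for tables.

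Named genes are the 10 members, Tatdn1, measured genes within 250 kb of Afmid, at most 4 of each pathway list by smallest genotype p, and the 5 genes most like Afmid over 24 and over 12 arrays. The members and lists were chosen with earlier results of these data known. The arrays of a mouse share the animal by their codes. Their deviations from group means correlated by -0.08 to 0.046 (consensus -0.014). Alternatives were quantile normalization, median centring, removal of the 30% dimmest probe sets, a variance trend with a robust fit, array weights, all 24 arrays in 1 fit, sex as a term, the mouse as a block, the highest background control as threshold, and each mouse left out.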

Additional observations from a re-analysis of the deposited data

Results flagged for a closer look

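In a group of 6 arrays, a value was noted when its gap to the nearest other value, divided by the range of the group, exceeded Dixon's 95% critical value. Of 40 group values tested, 5 were noted, and chance gives about 1 in 20. Afmid in the ventricle of Tatdn1-/- mouse F77-2 was 6.35, the other 5 arrays running from 5.44 to 5.67. Ido2 in the ventricle of Tatdn1+/+ mouse M75-0 was 1.38, against 2.32 to 2.86 in the others. Tdo2 in the ventricle of Tatdn1+/+ mouse M75-1 was 1.67, against 0.96 to 1.21. Haao in the cortex of Tatdn1-/- mouse M78-1 was 3.62, against 2.26 to 2.59. Aadat in the ventricle of Tatdn1-/- mouse M77-1 was 1.29, against 1.04 to 1.10. Apart from that of Afmid, these values were below the background threshold of their arrays.

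The genotype difference of Afmid differed between the tissues by 1.35 log2 units. This value chose the list and is not tested here.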

How the results depend on the processing

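In no setting did a member other than Afmid pass the adjusted threshold by genotype, and the Afmid differences kept their signs in all settings, at 0.86 to 1.06 in ventricle, -0.46 to -0.27 in cortex and 1.16 to 1.46 between the tissues. The adjusted p of Kmo in ventricle ran from 0.20 to 0.509. The mouse as a random block left the Afmid difference between tissues at 1.35 and that of Kmo at 0.78 (adjusted p = 0.30). In the tissue contrasts the mouse was a fixed block instead. Among the members this fixed block changed the call of Ido2 in Tatdn1-/- tissue alone (-0.46, adjusted p = 0.0351). Each member has 1 probe set, so averaging probe sets changed nothing, and with the highest background control as threshold the count of members above background in some group was again 1.

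Counts over all probe sets were small and moved. In ventricle 3 were called by genotype, 16 with a variance trend, 24 with all 24 arrays in 1 fit, and 0 to 5 with a mouse left out. In cortex 2 were called, 4 after quantile normalization, 4 after median centring, 6 with a variance trend, 11 with array weights, 34 with all 24 arrays, 8 with sex as a term, and 1 to 16 with a mouse left out. For the difference between tissues 3 were called, 5 after quantile normalization, 0 after median centring, 0 with a variance trend, 7 with array weights, and 0 to 13 with a mouse left out. By sex 4 were called in each tissue, 7 in ventricle with all 24 arrays, and 4 to 9 in cortex with a mouse left out. The cause of these moves was not tested.

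Median centring raised ventricle minus cortex by 0.41 in Tatdn1+/+ and 0.33 in Tatdn1-/- mice, with which 6 and 5 of the 9 members other than Afmid were called, against 3 and 2, beside 80.2% and 74.1% of all probe sets, against 55.5% and 55.1%. With it, Kmo (0.30) and Aadat (0.23) changed sign in Tatdn1+/+ mice, and Tdo2 (0.27), Haao (0.033) and Aadat (0.27) in Tatdn1-/- mice. With a mouse left out, 2 to 4 of the 9 were called in Tatdn1-/- mice, the 4 without mouse F77-1. By genotype in cortex Ido1 went from -0.01 to 0.04 after median centring and 0.056 with array weights. With a mouse left out, differences near 0 changed sign for Ido1 in ventricle by genotype (-0.117 to 0.012) and in cortex (-0.18 to 0.15), Aadat in ventricle (-0.004 to 0.065) and in cortex (-0.133 to 0.002), and Haao in cortex (-0.027 to 0.27). Between tissues they did so for Ido2 (-0.006 to 0.421) and Kmo (-0.215 to 0.084) in Tatdn1+/+ and for Haao (-0.48 to 0.002) and Acmsd (-0.004 to 0.336) in Tatdn1-/- mice. The 9 members other than Afmid lay below the background threshold on all arrays, which limits what their differences can show.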
